A study of Homo sapiens with 4 samples.

Results

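A set of 9 genes was followed in RNA sequencing counts from C4-2 cells: 7 of the antigen presentation machinery, CIITA, ERAP1, HLA-B, HLA-C, B2M, TAP1 and PSMB9, and 2 that lie opposite them in the genome, DEXI and CAST. They were taken by name, as 9 of the 59385 rows of the count table. In GENCODE release 29 on GRCh38, CIITA and DEXI overlap on opposite strands, as do ERAP1 and CAST, and each of these was read as a pair. C4-2 is a human prostate cancer line that descends from LNCaP and expresses the androgen receptor, grown here in RPMI medium with fetal bovine serum. Below, "under siCTRL" and "under siEZH2" mean the libraries so labelled. These came from cells with a control small interfering RNA (siCTRL, n = 2) or one against EZH2 (siEZH2, n = 2). EZH2 is the enzyme of Polycomb repressive complex 2 that methylates histone H3, and the comparison asked how expression differs when it is depleted. The labels do not give the sequence, dose or duration of the small interfering RNAs. All 4 libraries come from 1 cell line, and the labels do not say whether replicates were separate cultures, so p-values measure only the spread between these libraries, which may be technical.

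MHC class I molecules, made of a heavy chain such as HLA-B or HLA-C and the light chain B2M, show peptides from inside the cell to CD8 T cells. Peptides are cut by proteasomes, in which interferon exchanges catalytic subunits for inducible ones such as PSMB9, are carried into the endoplasmic reticulum by TAP1 with its partner, and are trimmed there by the aminopeptidase ERAP1. CIITA is a coactivator recruited to MHC promoters and the main switch of MHC class II genes. Reduced expression of class I genes is a known feature of many prostate cancers, and Polycomb repression of MHC genes has been described in other tumour types.

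Promoter windows from RefSeq on GRCh38.p14, reaching from 250 bases before to 50 bases after each annotated start, were found for 8 of the 9 genes, 14 windows in all. They were searched on both strands for the core of the interferon-stimulated response element, GAAANNGAAA, and for CCAAT, a sequence bound by NF-Y. The interferon core was present in 3 of the 14 windows, 1 each of B2M, ERAP1 and TAP1, and in 3.57% of all 35116 windows of this length. CCAAT was present in 10 of the 14 windows and in 34.6% of all windows. The windows with the interferon core are shown first. Those of HLA-B and HLA-C follow because they are alike, with 269 identical positions in their alignment (88.5% identity), although the counts of the genes differed. The window of DEXI is shown because it lies between the ends of CIITA. Each is written 5′ to 3′ on the strand of its gene, with every match to either motif, on either strand, in capitals. A match describes the letters in the window and is no evidence of binding.
B2M (chr15:44711267-44711566, plus strand): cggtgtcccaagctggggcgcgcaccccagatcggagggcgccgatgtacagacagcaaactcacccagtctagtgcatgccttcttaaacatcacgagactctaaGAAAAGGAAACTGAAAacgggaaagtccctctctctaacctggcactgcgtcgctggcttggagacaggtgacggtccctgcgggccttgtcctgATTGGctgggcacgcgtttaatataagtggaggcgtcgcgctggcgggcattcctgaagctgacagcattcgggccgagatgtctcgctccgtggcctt
ERAP1 (chr5:96807896-96808195, minus strand): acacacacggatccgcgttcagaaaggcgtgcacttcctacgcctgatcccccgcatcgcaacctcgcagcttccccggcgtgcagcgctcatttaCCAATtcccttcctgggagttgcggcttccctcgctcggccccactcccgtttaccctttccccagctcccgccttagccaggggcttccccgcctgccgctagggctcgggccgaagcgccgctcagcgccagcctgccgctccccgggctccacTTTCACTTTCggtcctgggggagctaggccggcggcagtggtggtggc
TAP1 (chr6:32853655-32853954, minus strand): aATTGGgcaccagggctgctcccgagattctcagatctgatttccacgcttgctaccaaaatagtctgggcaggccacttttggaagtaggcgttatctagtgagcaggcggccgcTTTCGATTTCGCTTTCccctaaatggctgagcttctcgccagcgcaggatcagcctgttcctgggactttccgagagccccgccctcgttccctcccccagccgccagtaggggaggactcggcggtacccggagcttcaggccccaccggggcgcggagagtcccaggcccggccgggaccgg
HLA-B (chr6:31357130-31357429, minus strand): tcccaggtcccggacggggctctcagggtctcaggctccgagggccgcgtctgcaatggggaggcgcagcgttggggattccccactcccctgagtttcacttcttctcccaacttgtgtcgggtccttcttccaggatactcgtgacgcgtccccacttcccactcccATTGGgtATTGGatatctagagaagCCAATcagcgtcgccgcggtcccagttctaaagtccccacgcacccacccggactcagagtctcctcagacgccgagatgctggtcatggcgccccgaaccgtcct
HLA-C (chr6:31272043-31272342, minus strand): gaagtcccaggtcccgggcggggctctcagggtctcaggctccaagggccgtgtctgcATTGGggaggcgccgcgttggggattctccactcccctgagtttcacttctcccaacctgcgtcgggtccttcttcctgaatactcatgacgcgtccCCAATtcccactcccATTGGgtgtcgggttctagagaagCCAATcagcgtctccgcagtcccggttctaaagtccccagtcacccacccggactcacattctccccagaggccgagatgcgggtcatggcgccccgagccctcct
DEXI (chr16:10942419-10942718, minus strand): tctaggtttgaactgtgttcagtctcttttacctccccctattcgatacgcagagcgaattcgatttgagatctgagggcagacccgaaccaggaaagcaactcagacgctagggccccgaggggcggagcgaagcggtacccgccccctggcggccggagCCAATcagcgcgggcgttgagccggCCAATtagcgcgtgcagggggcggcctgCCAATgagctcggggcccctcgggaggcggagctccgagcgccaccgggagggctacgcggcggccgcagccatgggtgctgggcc
In B2M the capitals GAAAAGGAAACTGAAA are 2 overlapping matches to the interferon core on the strand of the gene. The 2 matches in TAP1 and the match in ERAP1 are on the other strand.

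Facts of the whole table bear on what each row holds. Total counts ran from 6162123 to 6867542 per library, and TMM factors, which scale libraries against each other, from 0.704 to 1.34. The sources used here give neither the strand that was counted nor the annotation release. The library kit marks strand, so a row may hold reads of its own gene or of the gene facing it, and which of these it held was not tested. For the same reason a row at 0 sets no limit on the level of the gene it is named after. MT-ND6, the only mitochondrial protein gene coded on its strand, held 69.95% to 80.5% of the counts over the 13 mitochondrial protein genes in every library. EZH2 itself had 39 and 59 counts under siCTRL and 60 and 131 under siEZH2, a log2 fold change of 0.51 ± 0.52 (SE; quasi-likelihood test of edgeR, adjusted p = 0.621), so libraries are named by their labels. Pooled as total counts over total row length, the 9 luminal prostate markers gave 434, 428, 445 and 236 counts per kb (in the order siCTRL 1, siCTRL 2, siEZH2 1, siEZH2 2), the 10 leukocyte markers 14.6, 15.1, 14.2 and 18.8, and the 6 fibroblast markers 2.31, 5.13, 6.47 and 7.36. Most of the leukocyte counts were those of CD68, with 434, 363, 313 and 401. All 25 markers had counts in at least 1 library, and the part of these levels in the results below was not tested. In such bulk samples, fewer cells of a type and less RNA per cell cannot be told apart. As a level for genes with no known role in this tissue, 380 olfactory receptor rows were pooled in the same way; they gave 1.32 and 3.15 counts per kb under siCTRL and 4.70 and 6.34 under siEZH2.

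CIITA had the most counts of the 9 genes and ranked 234th of all rows by mean count. It had 3670 and 4259 counts under siCTRL and 3887 and 4162 under siEZH2, so the raw counts of the groups overlapped. DEXI, which takes its name from its induction by dexamethasone, had 21 and 20 counts under siCTRL and 33 and 52 under siEZH2, with both siEZH2 libraries above both siCTRL libraries. In CPM, the count per library relative to its TMM-scaled total, DEXI was again higher in both siEZH2 libraries, as were 31.4% of the rows tested, and CIITA was lower in both, as were 22.9%. With 1 of the 6 genes tested in each direction, neither share was above that of all rows. Per kb of row length CIITA stood at 176.8, 205, 187 and 200.5 counts, and DEXI at 3.14, 2.99, 4.93 and 7.77. DEXI was thus close to the olfactory receptor level, at 0.948 to 2.39 times it, and CIITA was at 31.6 to 134 times it.

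DEXI lies within the span of CIITA on chromosome 16, CIITA at 10866222 to 10943021 on the plus strand and DEXI at 10928891 to 10942460 on the minus strand. Over all annotated isoforms 2416 exonic bases overlapped, 11.6% of the exonic length of CIITA and 36.2% of that of DEXI. None of these bases are coding in CIITA, and 285 are coding in DEXI. The longest shared stretch, 1275 bases at 10941186 to 10942460, reaches the annotated start of DEXI. Of the shared bases, 830 belong to the principal isoforms of both genes. CIITA also shares 10.6% of its 100-base words, in the same orientation, with AC133065.3, another gene that faces DEXI, so part of its count is uncertain on its own strand too. Of the counts under both rows, CIITA held 99.4% (exact 95% binomial interval 99.1 to 99.7), 99.5%, 99.2% and 98.8%. CIITA had 174.8 and 212.9 times as many counts as DEXI under siCTRL and 117.8 and 80.0 times as many under siEZH2. The log2 ratio was 7.59 ± 0.20 against 6.60 ± 0.39 (SD, n = 2 each). With 2 libraries a group an exact two-sided permutation test cannot give a p below 0.333, so these ratios carry no test. DEXI was close to the olfactory receptor level, which was 1.32 and 3.15 counts per kb under siCTRL and 4.70 and 6.34 under siEZH2. The part of this level in the ratios was not tested.

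**Figure D1:**
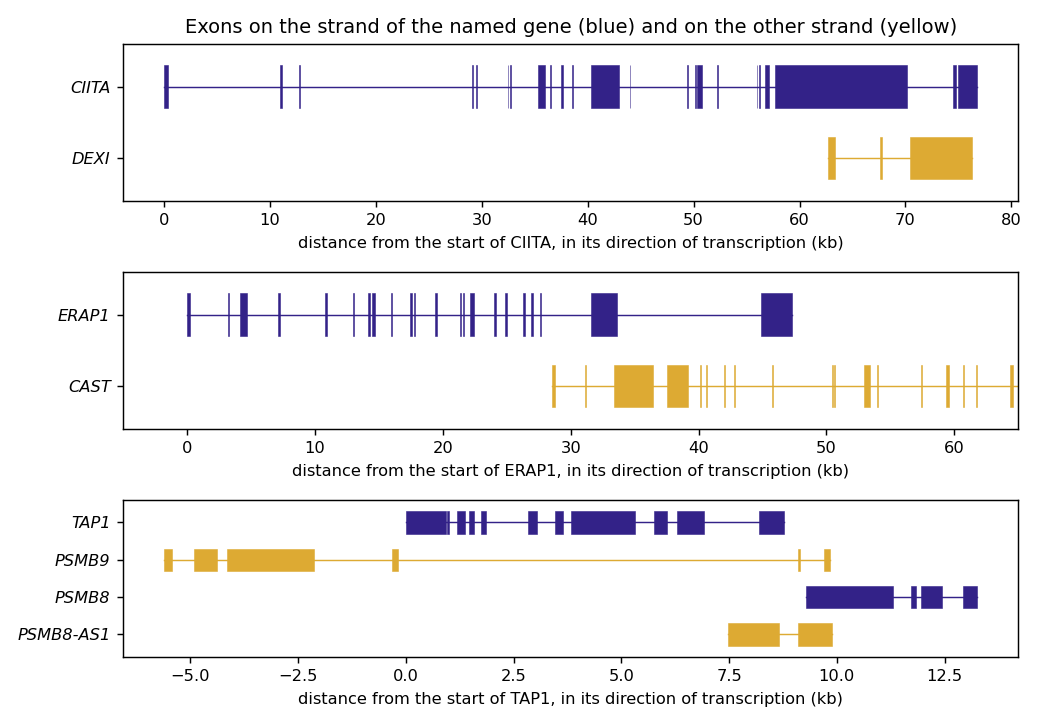
Annotated exons of the facing genes, by distance in kb from the start of CIITA, ERAP1 or TAP1 in its direction of transcription. Exons on the strand of that gene are blue and those on the other strand yellow. The panels hold CIITA with DEXI, ERAP1 with CAST (drawn only in part), and TAP1 with PSMB9, PSMB8 and PSMB8-AS1. CIITA and DEXI share 2416 exonic bases and ERAP1 and CAST share 299.

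ERAP1 had 1724 and 1469 counts under siCTRL and 1956 and 1135 under siEZH2. In raw counts the siEZH2 libraries thus held both the highest and the lowest value. CAST, which codes for calpastatin, the inhibitor of calpain proteases, had 171 and 170 counts under siCTRL and 111 and 295 under siEZH2. In raw counts its siEZH2 libraries also lay on either side of the siCTRL libraries, but in the opposite order. In CPM this held for CAST (35.6 and 26.7 under siCTRL, 15.9 and 36.5 under siEZH2). For ERAP1 it did not, as siCTRL replicate 1 was highest (358.9 and 230.5 under siCTRL, 279.5 and 140.4 under siEZH2). Per kb of row length ERAP1 stood at 217, 184.9, 246 and 142.9 counts and CAST at 12.8, 12.7, 8.32 and 22.1. CAST was 1.77 to 9.74 times the olfactory receptor level, so unlike DEXI it was above that level in every library.

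ERAP1 lies on chromosome 5 at 96760810 to 96808100 on the minus strand and CAST at 96525267 to 96779595 on the plus strand. Their exons share 299 bases, 3.76% of ERAP1 and 2.40% of CAST, in a stretch of 99 bases that is in the principal isoforms of both and another of 200 bases. ERAP1 held 91.0% (exact 95% binomial interval 89.6 to 92.2) and 89.6% (88.1 to 91.1) of the counts of both rows under siCTRL. It held 94.6% (93.6 to 95.6) and 79.4% (77.2 to 81.4) under siEZH2, and these intervals, which cover counting error only, did not meet. The log2 ratio of ERAP1 to CAST was 3.22 ± 0.16 in siCTRL and 3.04 ± 1.55 in siEZH2 (SD, n = 2 each). The difference of -0.18 became -1.28 without siEZH2 replicate 1 and 0.92 without siEZH2 replicate 2, so its sign rested on which of these libraries was used.

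Between the siEZH2 libraries, ERAP1 in replicate 2 had 0.580 times the count of replicate 1, and CAST 2.66 times. Among the 289 tested rows whose mean count was no more than 25% above or 20% below that of ERAP1, the median of this ratio was 0.892, and 22 rows (7.61%) were lower than ERAP1. Among the 806 such rows around CAST the median was 1.09, and 98.0% were lower than CAST. For CIITA the ratio was 1.07 with a median of 0.896 over 119 rows, and for DEXI 1.58 with a median of 1.29.

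Facing pairs of coding genes elsewhere in the table gave a setting for these ratios. There were 401 pairs that shared at least 100 exonic bases and in which the larger row had a mean of at least 1000 counts. With 0.5 added to each count, the median log2 ratio of the larger to the smaller row was 4.17 and 4.06 under siCTRL and 4.18 and 3.84 under siEZH2. The pair of CIITA and DEXI, with a mean of 7.07, ranked 39th by this ratio, and that of ERAP1 and CAST, with 3.13, ranked 272nd. The median difference between siEZH2 and siCTRL over the pairs was -0.05. CIITA and DEXI had a difference of -0.97, with 41 pairs lower, and ERAP1 and CAST had -0.18, with 168 pairs lower. The ratio was lower in siEZH2 replicate 2 than in replicate 1 in 64.1% of the pairs.

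**Figure D2:**
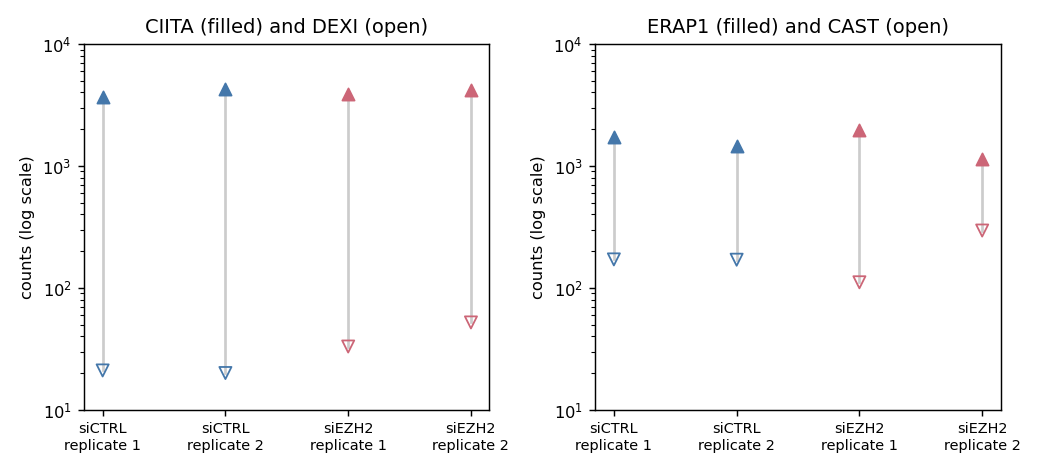
Counts of the facing rows in each library on a log axis, with 1 panel for CIITA and DEXI and 1 for ERAP1 and CAST. CIITA stays between 3670 and 4259 counts while DEXI runs from 20 to 52. In these raw counts the siEZH2 libraries bracket the siCTRL libraries for both ERAP1 and CAST, but in CPM only for CAST.

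The class I chains had few or no counts. HLA-B, the heavy chain at chromosome 6, 31269491 to 31357188 on the minus strand, in an annotation with isoforms that reach into HLA-C, had 0 counts in every library, which allows at most 3 counts, or 0.996 counts per kb. At the olfactory receptor level its length would have held 3.96, 9.50, 14.2 and 19.1 counts. HLA-C (31268749 to 31272130, minus strand) had 10 and 24 counts under siCTRL and 0 and 24 under siEZH2, so the highest value occurred in both groups. B2M (chromosome 15, 44711487 to 44718877, plus strand) had 18 and 40 counts under siCTRL and 20 and 53 under siEZH2. That is 3.30, 7.33, 3.67 and 9.72 counts per kb, between 0.781 and 2.51 times the olfactory receptor level, and the groups overlapped.

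Among annotated transcripts, little of the exact sequence of these genes occurred in another gene in the same orientation. Of the 100-base words in the annotated transcripts, none of the 3440 of HLA-B or of the 6741 of B2M occurred in the same orientation in another gene, and 4 of the 3176 of HLA-C did. The words were those of the annotation used here, which may differ from that of the authors. Only exact matches to annotated transcripts were counted, so reads that fit several places in the genome were not assessed. No annotated exon faces HLA-C or B2M. HLA-B shares 542 exonic bases with AL671883.2, an unprocessed pseudogene on the other strand that was not matched to a row by name.

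TAP1 and PSMB9 also had few or no counts. TAP1 (chromosome 6, 32845209 to 32853978, minus strand) had 4 and 6 counts under siCTRL and 2 and 0 under siEZH2, too few for the test. At the olfactory receptor level its length would have held 6.11, 14.6, 21.8 and 29.4 counts, so every library was under it. PSMB9 (32844136 to 32859585, plus strand) had 0 counts in all 4 libraries, or at most 0.899 counts per kb, where the olfactory receptor level would give 4.39, 10.5, 15.7 and 21.2 counts. The spans of TAP1 and PSMB9 overlap, but they share no exonic base. TAP1 instead shares 456 exonic bases, at 32845330 to 32845785, with the antisense RNA PSMB8-AS1, and PSMB9 shares 139 with PSMB8, another inducible proteasome subunit. PSMB8-AS1 had 232 and 311 counts under siCTRL and 206 and 194 under siEZH2. TAP1 held 1.70%, 1.89%, 0.962% and 0% of the counts under both rows, and 0 counts of 194 allow a share of up to 1.88% (exact 95% binomial). PSMB8 had 2, 0, 0 and 0 counts. In normalised counts PSMB8-AS1 stood at 48.6 ± 0.357 and 26.7 ± 3.85 CPM (SD, n = 2 each), or -0.86 ± 0.40 (SE) as a log2 fold change, which did not pass the threshold (edgeR, adjusted p = 0.296).

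**Figure D3:**
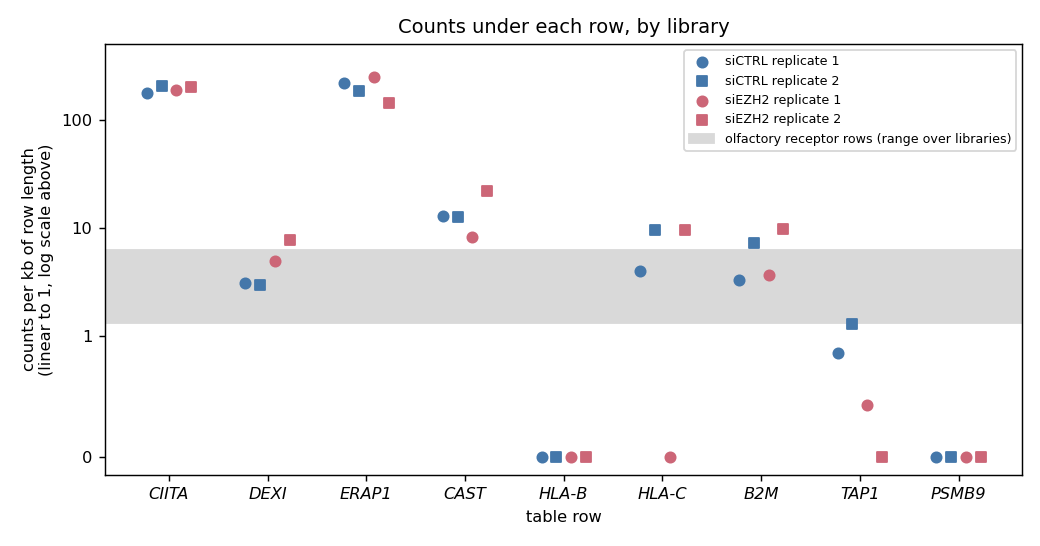
Counts per kb of row length for the 9 genes in each library, with zeros drawn at the bottom. The axis is logarithmic except near the bottom, where it is linear. The grey band is the range of the olfactory receptor level over the libraries. CIITA and ERAP1 lie between 142.9 and 246 counts per kb, CAST between 8.32 and 22.1, and the other genes at 9.72 or less.

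Low counts were common among the genes around HLA-B, HLA-C, TAP1 and PSMB9. In the span from the start of HLA-F to the end of HLA-DPB1 (chromosome 6, 29722775 to 33087201), which was chosen after these values were seen, 40 of 127 coding rows had 0 counts in all 4 libraries, or 31.5% (exact 95% binomial interval 23.6 to 40.3). The same was so of 19 of 818 other coding rows of chromosome 6 (2.32%), of 485 of 18804 coding rows elsewhere (2.58%) and of 35 of 380 olfactory receptor rows (9.21%). The median level was 0.314 counts per kb in the span and 5.79 in the coding rows elsewhere. The rows of the span were shorter, with a median of 2937 bases against 4480, but the olfactory receptor rows, with a median of 1229 bases, had a median of 3.74 counts per kb. Rows averaging 100 counts or more made up 6.30% of the span, 8 rows, and 14.7% of the coding rows elsewhere. They ranged from 118.5 for HLA-DMA, a chaperone of class II peptide loading, to 4499.75 for PPT2-EGFL8.

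**Figure D4:**
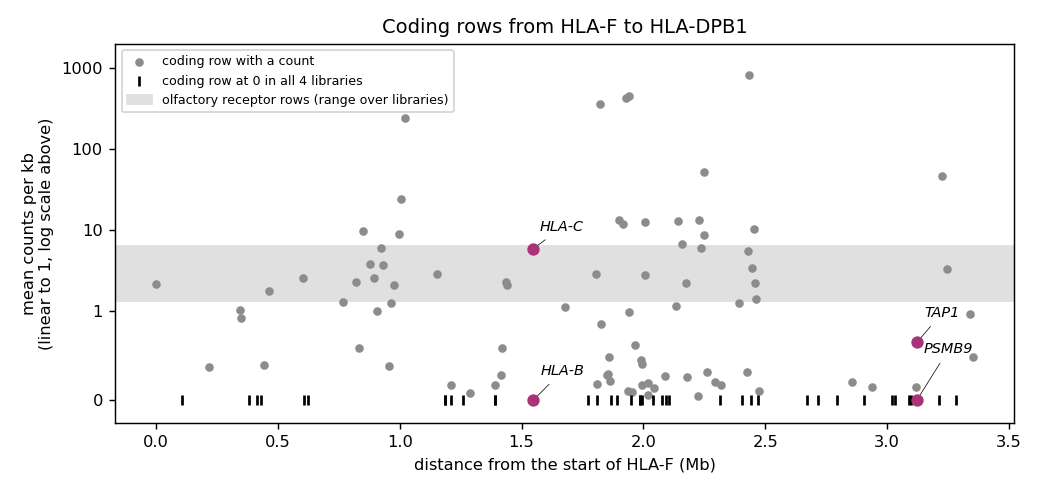
Counts per kb of coding rows between HLA-F and HLA-DPB1, averaged over the 4 libraries, by distance in Mb from the start of HLA-F, with rows at 0 at the bottom. The HLA-B and PSMB9 rows are among the 40 rows at 0, and PPT2-EGFL8 is the highest of the 127.

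No difference between siEZH2 and siCTRL in these genes passed the test of edgeR, which weighs it against the spread between replicates. Of the 9, 6 had enough counts to be tested, and HLA-B, TAP1 and PSMB9 did not. At an adjusted p under 0.05, 0 of the 6 were called, as were 0% of the 24431 rows tested, where none was lower than 0.159. Unadjusted p-values under 0.05 were found for 0 of 6 against 16.4% of all rows. By limma-voom 0 of the 6 and 1.41% of all rows had an adjusted p under 0.05. DESeq2 gave an adjusted p to 3 of the genes and called 0 of them, against 20.1% of the 4538 rows that received one.

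CIITA stood at 716 ± 67.7 CPM in siCTRL and 535 ± 28.7 in siEZH2 (SD, n = 2 each), or -0.42 ± 0.42 (SE) as a log2 fold change (edgeR, adjusted p = 0.614). ERAP1 had 295 ± 90.8 and 209.9 ± 98.4 CPM and a log2 fold change of -0.49 ± 0.44 (SE; edgeR, adjusted p = 0.572). The fold changes of the 2 rows were within 1 standard error of each other. For CAST the values were 31.1 ± 6.31 and 26.2 ± 14.6 CPM, -0.25 ± 0.45 (SE) and an adjusted p of 0.798 by edgeR. For DEXI they were 3.76 ± 0.872 and 5.57 ± 1.21 CPM, 0.57 ± 0.71 (SE) and 0.690. HLA-C had 2.92 ± 1.19 and 1.48 ± 2.10 CPM, with a log2 fold change of -0.96 ± 1.24 (SE; edgeR, adjusted p = 0.703). B2M had 5.01 ± 1.79 and 4.71 ± 2.61 CPM, with -0.09 ± 0.72 (SE; edgeR, adjusted p = 0.957). Scaling on rows with at least 200 counts raised the median log2 fold change of all tested rows from 0.22 to 0.88 and turned the sign of CIITA (0.28), ERAP1 (0.21), CAST (0.53) and B2M (0.59). Without siEZH2 replicate 1 the log2 fold change of ERAP1 was -1.15 and that of HLA-C -0.08, and without siEZH2 replicate 2 that of ERAP1 was -0.09 and that of HLA-C -7.18, against a lone count of 0. The sign of CAST also turned without siEZH2 replicate 1 (0.15), and that of B2M without siEZH2 replicate 1 (0.29) or siCTRL replicate 2 (0.24).

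Fold change followed mean count in this table, so each gene was set against the tested rows with a mean count no more than 25% above or 20% below its own. Every one of the 119 rows around CIITA had a negative fold change, with a median of -0.68, and CIITA lay 0.25 above that median, with 83.2% of the rows lower. Around ERAP1 the median of 289 rows was -0.70, and ERAP1 lay 0.21 above it, with 75.8% lower. CAST lay 0.39 above a median of -0.64 over 806 rows, with 79.8% lower. The rows of the lower counts had positive medians. DEXI lay 0.09 above a median of 0.48 over 4052 rows, with 53.6% lower. B2M lay -0.56 from a median of 0.46, with 28.2% of 3997 rows lower, and HLA-C lay -1.57 from a median of 0.61, with 7.71% of 3932 rows lower. Single libraries moved these differences: CIITA came to 0.05 without siCTRL replicate 1, ERAP1 to -0.16 without siEZH2 replicate 1, CAST to -0.38 without siEZH2 replicate 2, DEXI to -0.45 without siCTRL replicate 2, and HLA-C to -7.76 without siEZH2 replicate 2, which leaves only a count of 0 in its group, so that the fitted value depends on the prior count. B2M came to -0.08 without siEZH2 replicate 1.

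**Figure D5:**
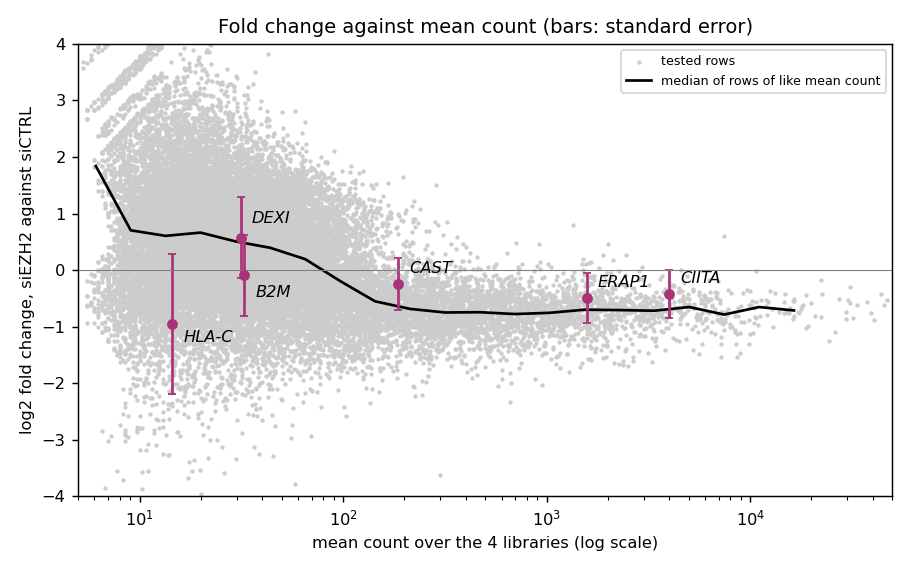
Log2 fold change of siEZH2 against siCTRL by mean count on a log axis for all tested rows (grey, with rows beyond 4 in either direction not drawn) and the 6 tested genes, with error bars of 1 standard error. CIITA, ERAP1 and CAST lie above the medians of rows with similar counts, -0.68, -0.70 and -0.64, and HLA-C lies below its median of 0.61.

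The wider pathway was described with 8 lists of 63 genes, among them the 9 genes other than DEXI, of which 43 had enough counts to be tested and 10 had 0 counts in every library. None was called by edgeR over all rows, and 8 (18.6% of those tested) had an unadjusted p under 0.05, near the 16.4% of all rows. Negative fold changes numbered 30 and positive ones 13, with a median of -0.28, where 10578 of all 24431 were negative and 13853 positive with a median of 0.22. Against rows of similar count 17 of the 43 lay above the median and 26 below.

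Among the 7 class I chains 2 were at 0 in all libraries and 3 were tested, all with negative fold changes (median -0.96). The 7 tested of 9 genes for peptide supply and loading also had negative fold changes (median -0.61), with 3 above and 4 below the median of similar rows. The 3 tested of 5 immunoproteasome genes had a median of -0.68, among them PSME2, a subunit of the proteasome activator, with 53, 50, 55 and 32 counts and an adjusted p of 0.559 by edgeR. The 3 constitutive catalytic subunits, which the inducible ones replace, had a median of -1.16. Of these PSMB7 had 972 and 1068 counts under siCTRL and 573 and 676 under siEZH2. Both siEZH2 libraries were lower, as in 22.9% of all rows in CPM. The log2 fold change of PSMB7 was -1.16 ± 0.40 (SE), with an adjusted p of 0.204 by edgeR. Its adjusted p was 0.0142 by DESeq2 and 0.0107 to 0.316 over the alternatives that kept all libraries. The 377 rows of similar mean count had a median of -0.775. PSMB7 lay -0.385 from it, with 14.1% of those rows lower.

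Of 14 class II pathway genes 6 were at 0 in every library and 4 were tested, 1 positive and 3 negative (median -0.57). CD74, the invariant chain that guides class II molecules, had 1522 and 1549 counts under siCTRL and 808 and 1105 under siEZH2. Its log2 fold change was -1.15, with an adjusted p of 0.211 by edgeR. CD74 lay -0.412 from a median of -0.739 over 301 rows of similar mean count, with 10.6% of them lower. The 8 factors that act with CIITA or in its place at MHC promoters were all tested, 4 positive and 4 negative (median 0.10). RFXANK, a subunit of the RFX complex that recruits CIITA, had 981 and 742 counts under siCTRL and 485 and 527 under siEZH2, again lower in both siEZH2 libraries. Its log2 fold change was -1.25 ± 0.42 (SE), with an adjusted p of 0.199 by edgeR. The adjusted p was 0.0183 by DESeq2 and 0.0103 to 0.287 over the alternatives that kept all libraries. RFXANK lay -0.489 from a median of -0.764 over 425 rows of similar mean count, with 10.35% of them lower. RFXANK shares 221 exonic bases with NR2C2AP on the other strand, whose row had 1014, 914, 915 and 985 counts, and 363 with BORCS8, whose row had 63, 78, 99 and 20. NLRC5, the coactivator of class I genes, had 20 and 71 counts under siCTRL and 104 and 116 under siEZH2 (log2 fold change 0.92; edgeR, adjusted p = 0.384). Both siEZH2 libraries were higher, as in 31.4% of all tested rows in CPM. Per kb NLRC5 stood at 1.615, 5.73, 8.40 and 9.37 counts, where the olfactory receptor level was 1.32, 3.15, 4.70 and 6.34.

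The interferon signalling list had 11 of 13 genes tested, 6 positive and 5 negative (median 0.39). The 4 genes of the calpain system, to which CAST belongs, were all tested, 2 in each direction (median -0.08). The protease CAPN1 had 189, 223, 327 and 308 counts (log2 fold change 0.19 ± 0.40, SE; edgeR, adjusted p = 0.829).

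The rows whose level over the 4 libraries was most like that of CIITA and ERAP1 were sought among tested rows within 2 times the mean count, by the root mean square difference of centred log2 CPM. Among 405 rows the closest to CIITA were HPCA (0.0482), RP13-516M14.8 (0.0696) and PTOV1-AS2 (0.0698). HPCA, which codes for the neuronal calcium sensor hippocalcin, had 6362, 7679, 6381 and 7141 counts. Among 854 rows the closest to ERAP1 were PCNX4 (0.0134), RP11-496H1.4 (0.0149) and RP11-791I24.5 (0.0193). PCNX4 had 2424, 2024, 2761 and 1582 counts, with siEZH2 replicate 1 highest and siEZH2 replicate 2 lowest in raw counts, as in ERAP1. A set of 4 libraries gives few points for such likeness, and the 6 rows had log2 fold changes of -0.51 to -0.47. As these rows were picked for likeness over the same 4 libraries, their shared order and fold changes follow from that choice.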

How the data were processed

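RNA from C4-2 cells entered a stranded total RNA kit, per the labels' protocols. The authors deposited raw counts, 1 column a library, neither normalised nor pooled, and row lengths in bases, per the file headers. The submitters' processing notes name GRCh38, STAR 2.7.10b, featureCounts 2.0.3, edgeR and limma. The sources used here give neither the annotation release nor the strand setting. Groups and replicate numbers came from the titles.

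The whole table was fitted with edgeR 4.0.16 (R 4.3.3): filterByExpr (24431 rows kept), TMM, glmQLFit and glmQLFTest with no covariate, Benjamini-Hochberg adjustment over the kept rows and a threshold of 0.05. The steps were run on simulated counts with the same dispersion for all rows and larger changes than those of the genes tested here. That run does not show whether changes as small as theirs could be called. Alternatives were RLE and upper-quartile factors, TMM from rows of 200 or more counts in 2 libraries, no filter, at least 50 counts in 2 libraries, DESeq2 1.42.0, limma-voom (limma 3.58.1), a replicate block, each library left out, a window of 2 times and an overlap of 100 bases.

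Rows were placed on GENCODE release 29 by unique symbol, and facing exons were compared over all isoforms. Named genes were the 9 genes, EZH2, the called or otherwise most counted member of each pathway list, the 3 rows most like CIITA and ERAP1, and rows facing a member; 1 gene that this rule names is not reported here. NR2C2AP, BORCS8, TMEM50B, CD68, CD74, NLRC5, RFXAP, JAK1, IFNGR2, HLA-DMA, PPT2-EGFL8 and MT-ND6 were chosen after values were seen. So were the pairs used as a setting, the olfactory receptor rows and the MHC span. The genes and lists were chosen with earlier results of these data known. Intervals cover counting error only. Python 3.11.15 was used for tables and plots.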

Additional observations from a re-analysis of the deposited data

How the results depend on the processing

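The 6 tested genes were called under none of the alternatives run. Of 69 comparisons of their fold changes, 61 kept their sign and 8 reversed. Over all rows, edgeR called 0 higher and 0 lower. RLE factors called 1 and 12, no low-count filter 12 and 68, DESeq2 8 and 905, and limma-voom 11 and 334. The replicate block called 248 and 1079, but deviations of same-numbered libraries had a correlation of only 0.0502 and no label pairs them. Leaving out 1 library called 0 to 61 higher (61 without siEZH2 replicate 1) and 1 to 173 lower. PSMB7 and RFXANK passed with DESeq2 (adjusted p = 0.0142 and 0.0183) and in the replicate block (0.0107 and 0.0103). Differences from rows of similar count ran, over the libraries left out, from 0.051 to 0.391 for CIITA, -0.447 to 0.503 for DEXI and -7.762 to -0.774 for HLA-C. Reversed log2 fold changes under TMM on rows with at least 200 counts were 0.28 for CIITA, 0.21 for ERAP1, 0.53 for CAST, 0.59 for B2M, 0.015 for PSME2, 0.21 for HPCA, 0.20 for RP13-516M14.8, 0.26 for PTOV1-AS2, 0.23 for PCNX4, 0.20 for RP11-496H1.4 and 0.22 for RP11-791I24.5. This scaling moved the median of all rows from 0.22 to 0.88. With at least 50 counts in 2 libraries CAST came to 0.19. Over the libraries left out, ERAP1 ran from -1.145 to -0.088, CAST from -0.986 to 0.152 (positive without siEZH2 replicate 1), B2M from -0.84 to 0.288 (positive without siEZH2 replicate 1 and, at 0.243, without siCTRL replicate 2), CAPN1 from -0.045 (without siEZH2 replicate 1) to 0.313 and EZH2 from -0.043 (without siEZH2 replicate 2) to 0.81. The cause was not tested. The overlap minimum changed no count of facing genes. A zero allows up to 3 counts, or 0.371 to 0.625 CPM by library, so lower counts in the HLA-B and PSMB9 rows were not detectable. With the counted strand not given, this is a limit on the rows and not on the genes.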

Other observations

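Several genes that the annotation puts opposite a member carry names that do not occur in the count table. In the table, rows with clone names and the same length as such a gene stood beside the member. No source used here pairs these names, so the match is by length and place only and was made after the values were seen. Beside CAST, CTC-506B8.1 (565 bases, as AC020900.1, a length shared by 48 rows) had 927 and 851 counts under siCTRL and 1040 and 457 under siEZH2. Its highest and lowest raw counts fell in the same libraries as those of ERAP1. Beside ERAP1, CTD-2260A17.1 (1001 bases, as AC008906.1) had 119, 105, 85 and 171 counts, with its lowest and highest values in the same libraries as those of CAST. Near HLA-B, whose own row was at 0, XXbac-BPG248L24.12 (991 bases, as the pseudogene AL671883.2, a length shared by 17 rows) had 171 and 164 counts under siCTRL and 236 and 260 under siEZH2. Beside CIITA, RP11-876N24.2 had 2, 4, 20 and 0 counts, and beside DEXI, RP11-876N24.3 had 0 in every library.

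RFXAP, another subunit of the RFX complex, had 2 and 0 counts under siCTRL and 24 and 16 under siEZH2. Per kb RFXAP stood at 0.867, 0, 10.4 and 6.93 counts, where the olfactory receptor level was 1.32, 3.15, 4.70 and 6.34. JAK1, a kinase of interferon receptors, had 15 and 26 counts against 72 and 82, with both siEZH2 libraries higher, as in 31.4% of all tested rows in CPM. Per kb it stood at 1.19, 2.06, 5.71 and 6.50 counts, near the olfactory receptor level of 1.32, 3.15, 4.70 and 6.34. IFNGR2, a chain of the interferon-gamma receptor, had 81 and 30 counts against 18 and 35. It shares 380 exonic bases with TMEM50B on the other strand, whose row had 562, 425, 557 and 495 counts. Of RFXAP, JAK1 and IFNGR2, none had an adjusted p under 0.05 by edgeR (0.261, 0.260 and 0.266).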
